A study of Mus musculus with 4 samples.

Results

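The cells described here are turnover thymocytes sorted by how far along the Jα array of the T cell receptor (TCR) alpha locus their productive TRA chain had been joined. Of 1791 turnover barcodes with a productive, full-length TRA contig (an assembled receptor transcript), 1778 were in the gene expression table and 1755 of these had at least 1000 UMIs (unique molecules). In 443 of them, called upstream, every productive TRA used a TRAJ segment numbered 40 or higher. In 758, called downstream, every one used a segment numbered 25 or lower. The remaining 554 used segments in between or on both sides. Upstream and downstream cells together were 1201 of the 8961 barcodes of the series. The rule used the TRA contigs only and no gene expression value.

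The study profiled thymocytes of wild-type thymi that had been transplanted for 28 days, in a condition named turnover and one named autonomy, with 1 gene expression library and 1 matched V(D)J library each from a droplet 5′ assay. By general use of these terms, the resident cells of the graft are replaced by incoming progenitors in turnover, and the thymus keeps producing T cells from its own cells in autonomy. Each library held sorted DN3-DN4 (late double negative) cells, double positive (DP) cells, and the immature single positive (ISP) cells that lie between them. The labels gave neither the hosts nor the number of animals. Upstream and downstream cells came from the same library, so there were no replicates to test with, and each value carries a 95% interval for counting error that treats cells and UMIs as independent. The autonomy library, sorted by the same rule into 300 upstream and 1073 downstream cells, is set beside the turnover values as a separate library with the same assay. The 2 count tables had 31 barcode sequences in common.

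DP thymocytes carry both Cd4 and Cd8 and assemble the alpha chain of their receptor. Joining starts with the Jα segments nearest to the Vα segments, which carry the high TRAJ numbers, and a later joining on the same allele replaces the first one with a Vα further away and a Jα further downstream, towards the constant region Trac. The TRAJ number in use is therefore commonly read as a rough clock of the time a cell has spent rearranging, while a TCR signal during selection ends the process. The comparison asked which genes differ with that position.

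The CDR3 sequences of the segments used most often show what sorted the cells. In each line the letters in capitals are the 3′ end that at least 80% of the contigs of that TRAJ shared, and the lower case letters are the rest of the CDR3 of the contig with the most UMIs, which is the Vα end, the junction and any further Jα bases. The first 3 are from upstream cells (52, 46 and 45 contigs), the last 3 from downstream cells (70, 66 and 62 contigs).
TRAJ40 with TRAV12-3: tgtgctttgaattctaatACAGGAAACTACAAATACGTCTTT
TRAJ45 with TRAV21/DV12: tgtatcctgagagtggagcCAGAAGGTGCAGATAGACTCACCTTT
TRAJ42 with TRAV14D-1: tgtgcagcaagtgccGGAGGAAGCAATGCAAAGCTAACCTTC
TRAJ6 with TRAV13N-1: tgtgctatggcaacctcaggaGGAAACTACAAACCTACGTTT
TRAJ4 with TRAV7N-6: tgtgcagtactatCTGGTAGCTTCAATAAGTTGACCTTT
TRAJ23 with TRAV6-3: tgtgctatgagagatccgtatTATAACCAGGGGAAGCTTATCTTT
The segments just inside the limits were TRAJ40, on 52 contigs of upstream cells, and TRAJ24, on 11 contigs of downstream cells, and the segments just outside the limits, TRAJ39 and TRAJ26, were on 42 and 62 contigs of the cells in between.

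Both groups carried the transcripts of DP cells. Cd8a stood at 3208 CPM (UMIs of the gene per 1000000 UMIs of the group) in upstream and 3316 CPM in downstream cells, Cd4 at 539 and 730 CPM, and Arpp21, an RNA-binding protein high in DP cells, at 723 and 906 CPM. Markers of other cells were sparse, apart from the list of mature thymocytes. Its 17 genes had 1559 upstream and 2116 downstream UMIs, 1022 against 1270 CPM, with none at 0. The 12 macrophage and granulocyte genes summed to 25 upstream and 51 downstream UMIs with 3 genes at 0, 6 of 8 B cell genes were at 0 (Ighm, the IgM heavy chain constant region, had 886 and 710 UMIs), and all 6 erythroid genes were at 0. Of the stroma list 7 of 10 genes were at 0, of the innate lymphoid and NKT list 5 of 12, and of the dendritic cell list 3 of 10, whose UMIs were mostly of Ccr9 (2605 and 3206), a chemokine receptor of thymocytes. The 7 gamma and delta chain genes had 70 and 39 UMIs. The tables held 20163286 UMIs in turnover and 16388810 in autonomy.

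Depth moved with TRAJ position. Upstream cells had a median of 2590 UMIs (1008 to 24596) and downstream cells 1764 (1052 to 52268), with medians of 1348 and 1101.5 genes and of 2.91% and 2.80% mitochondrial UMIs. Over 5 bins of falling TRAJ number (50 or higher, 40 to 49, 26 to 39, 13 to 25, 12 or lower) the median was 2914, 2398, 2077.5, 1858 and 1690 UMIs. The bins held 169, 263, 484, 339 and 391 cells. Autonomy showed the same order, with 3304 UMIs in upstream and 2338 in downstream cells. Summed UMIs were 1525973 and 1665506 in turnover, and the deepest downstream cell alone held 3.14% of the latter. Matched depth below means cells of 1500 to 2500 UMIs (182 upstream and 498 downstream cells).

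The other TRA allele of the same cells, which the rule did not use, lay on the same side. Among unproductive full-length TRA contigs with a TRAJ different from that of the productive one, the 68 contigs of upstream cells had a median TRAJ number of 45 (quartiles 32.75 and 52), the 70 of the cells in between 32, and the 126 of downstream cells 15 (7 and 22). TRAJ numbers of 40 or higher made up 66.2% of the upstream contigs (exact binomial interval 53.7 to 77.2) and 2.38% of the downstream contigs (0.494 to 6.80). Numbers of 25 or lower made up 8.82% (3.31 to 18.2) and 81.7% (73.9 to 88.1). In autonomy the medians were 37, 30 and 16, from 38, 72 and 169 contigs.

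**Figure D1:**
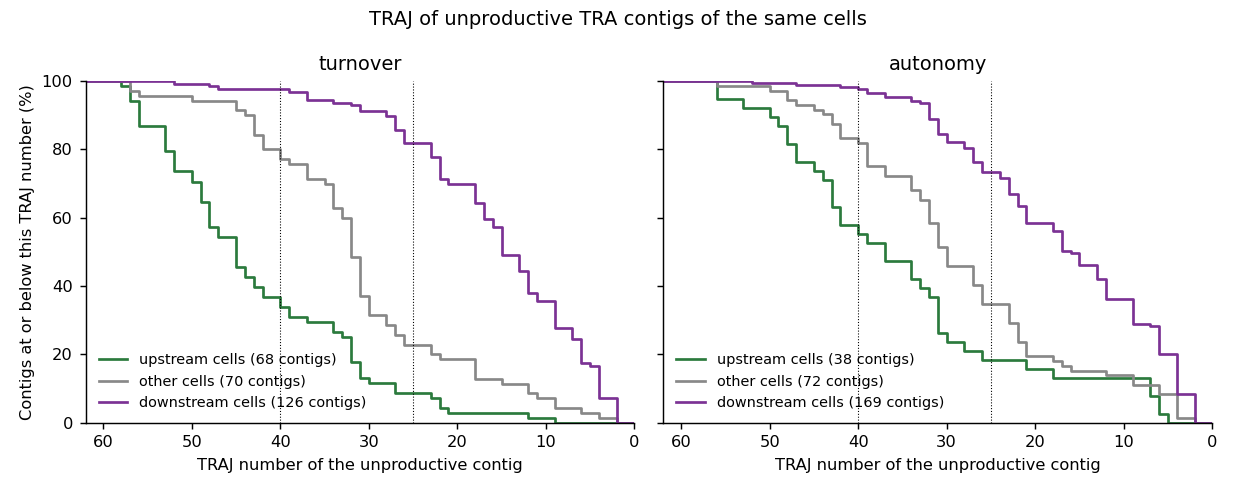
Cumulative share of unproductive TRA contigs (vertical axis, %) by their TRAJ number (horizontal axis, high numbers on the left), for upstream, in-between and downstream cells of turnover and autonomy. Dotted lines mark TRAJ 25 and 40. The curves follow the group of the productive chain, with turnover medians of 45, 32 and 15.

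On the Vα side of the productive chain the medians were close, while the quartile nearer to Trac lay further from it in downstream cells. All 477 upstream and 823 downstream contigs had a TRAV segment with a position on GRCm38.p6, at a median of 1058 kb (quartiles 599 and 1230) and 1088 kb (875 and 1248) before Trac, which lies on chromosome 14 from 54220521 to 54224198. In autonomy the nearer quartile was 715 kb in upstream and 869 kb in downstream cells. A productive TRB chain was found in 92.3% (89.4 to 94.6) and 90.5% (88.2 to 92.5) of the turnover cells. At least 2 productive TRA contigs were found in 7.67% and 8.58%. Few cells shared a chain, with 2 upstream and 4 downstream contigs identical to another in V, J and CDR3.

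Trdc, the constant region of the delta chain, lies between the Vα and Jα segments and is removed from an allele by the first Vα-to-Jα joining. It had 50 UMIs in upstream and 24 in downstream cells, 32.8 against 14.4 CPM, a ratio of 0.440 (0.258 to 0.729). The same ratio was 0.248 (0.123 to 0.482) in autonomy. By bin, turnover cells stood at 44.97, 22.4, 31.3, 13.1 and 16.6 CPM. The gene was under the minimum of 200 UMIs set for the comparison below, and its counts are small.

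Across all genes with at least 200 UMIs over both groups, a gene is called apart here when its CPM differed at least 1.5-fold. Of 2799 genes over all cells, 152 were higher in downstream cells (5.43%) and 94 lower (3.36%). In cells without a UMI of Itm2a, a transmembrane protein induced by TCR signals (338 upstream and 635 downstream cells), 121 of 2078 genes were higher (5.82%) and 68 lower (3.27%). These upstream cells had a median of 2457 UMIs and the downstream cells 1709, and a zero is more likely in a shallow cell. The median gene stood 0.11 higher in downstream cells on the log2 scale in both sets. With that median set to no difference, the split turned to 76 higher and 136 lower genes over all cells and to 64 and 109 in Itm2a 0 cells. With at least 2000 UMIs per cell it was 39 higher and 65 lower of 1901 genes, and 32 and 40 of 1167 in Itm2a 0 cells. At matched depth it was 49 higher and 26 lower of 1182 genes, and 37 and 26 of 985. The balance of higher and lower calls thus depended on the scaling and on the minimum depth of the cells.

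The 10 genes farthest above 1, ranked by the bound of the interval nearest to 1, were Slc6a19, Patj, Pdk1, the long non-coding RNA BC065403, S100a11, Arl5c, Plxdc1, Tiparp, Rag1 and Tuba1a. All 10 lay between the groups in cells with TRAJ 26 to 39, which the comparison did not include. All 10 also stood at least 1.5-fold higher in downstream cells of autonomy, where the background was 3.82% higher and 1.23% lower of 4162 genes over all cells and 7.13% and 2.59% of 3128 genes in Itm2a 0 cells. Of the 10 highest genes in Itm2a 0 cells, 7 were the same, joined by Gm26740, Cd69 and Tmsb10.

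Slc6a19 encodes a sodium-coupled transporter of neutral amino acids and lies on chromosome 13 from 73679745 to 73700780 (GRCm38.p6, as for all positions here). It had 43 UMIs in upstream and 261 in downstream cells, 28.2 against 157 CPM, a ratio of 5.56 (4.02 to 7.87). By bin it stood at 13.6, 42.2, 90.6, 137 and 183 CPM, each bin above the one before it. In autonomy the bins stood at 11.2, 25.6, 29.9, 47.9 and 81.5 CPM, in the same order, and the ratio was 3.36 (2.21 to 5.30). A UMI of Slc6a19 was found in 8.13% of upstream, 17.9% of in-between and 24.3% of downstream cells. With every cell thinned to 1000 UMIs the shares were 3.61% (2.08 to 5.80), 9.57% (7.25 to 12.3) and 15.8% (13.3 to 18.6). In cells with a Mki67 UMI and no productive TRA (520 cells, median 16921.5 UMIs), a dividing class taken as the background, the share was 2.50%, and 0.192% when thinned (0.00487 to 1.07). Limits of TRAJ 45 and 20 gave a ratio of 9.61, a minimum of 2000 UMIs per cell 3.08 and matched depth 3.59.

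Patj, a scaffold protein of epithelial tight junctions (chromosome 4, 98395560 to 98719603), had 46 and 179 UMIs, a ratio of 3.57 (2.57 to 5.04), and 3.30 (2.32 to 4.83) in autonomy. By bin it stood at 23.2, 37.0, 78.6, 99.2 and 117 CPM. The ratio was 1.90 with at least 2000 UMIs per cell. Pdk1, a kinase that holds back pyruvate from the mitochondrial citric acid cycle (chromosome 2, 71873215 to 71903858), had 91 and 281 UMIs, a ratio of 2.83 (2.23 to 3.62), and 1.75 (1.38 to 2.25) in autonomy. Its level by bin was 42.2, 76.6, 115, 145 and 186 CPM. In autonomy, by contrast, its first 3 bins lay at 58.3, 66.6 and 62.1 CPM, within each other's intervals, and the last at 139 CPM.

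Arl5c, a small GTPase of the Arf-like family, had 462 upstream and 1149 downstream UMIs, 303 against 690 CPM, a ratio of 2.28 (2.04 to 2.54). The ratio was 1.66 (1.498 to 1.85) in autonomy, and in turnover 1.39 with at least 2000 UMIs per cell, below the threshold, and 1.73 at matched depth. Plxdc1, a transmembrane protein with a plexin-like domain, had 63 and 173 UMIs, a ratio of 2.52 (1.88 to 3.41) and of 2.42 (1.87 to 3.19) in autonomy. The 2 genes are neighbours on chromosome 11, Plxdc1 from 97923237 to 97986669 and Arl5c from 97989575 to 97996285, with 2.906 kb between them. Plxdc1 stood at 108 and 99.6 CPM in the last 2 turnover bins, and Arl5c at 665 and 722 CPM.

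S100a11, a calcium-binding protein, stood at 95.7 and 237 CPM, a ratio of 2.48 (2.05 to 3.02) and of 1.54 (1.25 to 1.92) in autonomy. Tiparp, an enzyme that adds single ADP-ribose units and is induced by the aryl hydrocarbon receptor, stood at 45.9 and 112 CPM, a ratio of 2.45 (1.85 to 3.27) and of 3.22 (2.28 to 4.66) in autonomy. The Tiparp ratio was 3.70 with limits of TRAJ 45 and 20 and 1.46 with at least 2000 UMIs per cell. BC065403 had 49 and 152 UMIs, a ratio of 2.84 (2.05 to 4.01), but only 2 and 33 in autonomy, where its ratio of 6.38 had an interval of 1.63 to 54.9. The BC065403 ratio in turnover was 1.76 with at least 2000 UMIs per cell and 1.80 at matched depth.

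**Figure D2:**
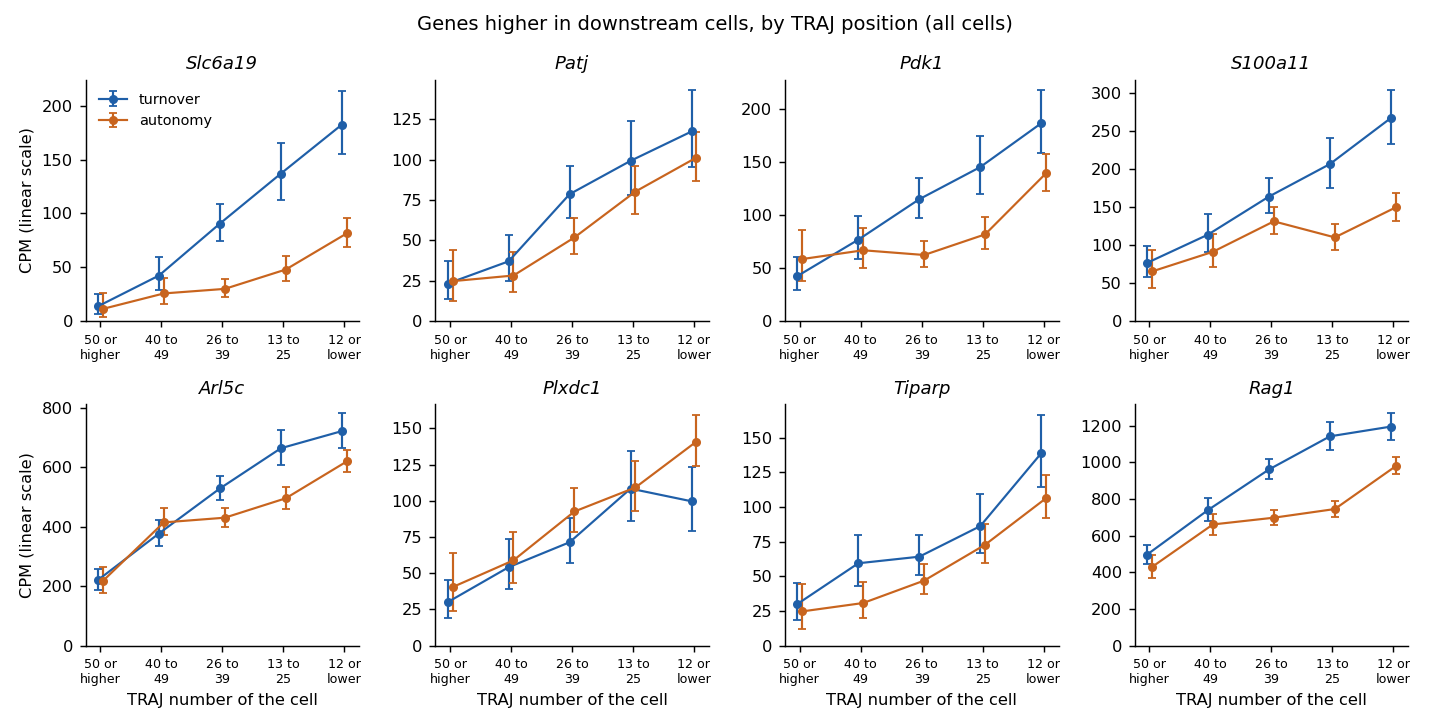
CPM (vertical axes, linear and starting at 0) of 8 genes by the TRAJ number of the cell (horizontal axes, upstream on the left) in turnover and autonomy, all cells. Points are sums over the cells of a bin and bars are exact 95% Poisson intervals. Slc6a19 stood at 13.6 CPM in the first and 183 CPM in the last turnover bin.

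Among the genes of recombination itself, Rag1, which cuts the DNA with Rag2, stood apart. It had 936 and 1949 UMIs, 613 against 1170 CPM, a ratio of 1.91 (1.76 to 2.06), and 1.55 (1.42 to 1.68) in autonomy. By bin it stood at 496, 739, 961, 1141 and 1194 CPM. A Rag1 UMI was found in 65.5% of upstream and 73.6% of downstream cells, and in 40.4% (35.8 to 45.1) and 62.5% (59.0 to 66.0) when thinned to 1000 UMIs, against 68.7% and 11.9% in the dividing cells without a productive TRA. The ratio lost the 1.5-fold call in cells of matched depth (1.30) and with at least 2000 UMIs per cell (1.32). In cells without a UMI of Itm2a, Mki67 or Top2a it was just under the fold, at 1.49 in turnover and 1.48 in autonomy. Rag2, in contrast, had a ratio of 1.27 (1.14 to 1.42), with 360 and 458 CPM, and stayed under the fold. Dntt, the polymerase that adds untemplated bases at the joint, stood at 1670 and 1726 CPM, a ratio of 1.03 (0.979 to 1.09). Dclre1c, the nuclease Artemis that opens the hairpin ends, was higher at 1.55 (1.21 to 1.996), and 1.37 (1.04 to 1.81) in autonomy. Hmgb2, a DNA-bending protein also abundant in dividing cells, was lower at 0.392 (0.365 to 0.420). In cells without a UMI of Itm2a, Mki67 or Top2a, Hmgb2 stood at 1.07 (0.850 to 1.36), and at 0.776 in autonomy. Of 14 genes on this list, 8 had 200 UMIs, 2 of them higher and 1 lower, beside 5.43% higher and 3.36% lower of all genes. The list's median log2 ratio was 0.10, beside 0.11 over all genes.

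In Itm2a 0 cells the same leading genes stood apart, Slc6a19 at 4.99 (3.55 to 7.19), Patj at 3.64, Pdk1 at 2.66, S100a11 at 2.54, Arl5c at 2.15 and Rag1 at 1.71. The share of cells with an Itm2a UMI was 23.7% in upstream and 16.2% in downstream cells, but 11.1% (8.30 to 14.4) and 10.8% (8.70 to 13.2) when thinned, within each other's intervals. The thinned share was 4.04% in the dividing cells without a productive TRA. Gm26740, a predicted gene, stood at a ratio of 2.77 in Itm2a 0 cells and at 1.69 in those of matched depth. Tmsb10, which binds actin monomers, stood at a ratio of 1.88 in Itm2a 0 cells and 1.24 in autonomy.

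Of 29 genes on the list of TCR signals and selection, 13 had 200 UMIs over all cells, 3 were higher (Cd69, Egr1, Dusp2) and none lower, beside 5.43% higher and 3.36% lower of all genes. The list's median log2 ratio was 0.07, beside 0.11 over all genes. Cd69, an early activation marker of the cell surface, stood at 100 and 187 CPM, a ratio of 1.86 (1.53 to 2.28), and at 2.41 in Itm2a 0 cells. By bin it stood at 76.3, 124, 169, 205 and 147 CPM, so the last bin lay under the one before it. In autonomy the Cd69 ratio was 1.18 (0.986 to 1.42) over all cells and 1.54 in Itm2a 0 cells. Cells with a Cd69 UMI made up 9.71% of upstream and 10.8% of downstream cells after thinning, and 19.2% and 16.8% before it, against 0.192% and 6.35% of the dividing class. Egr1, an immediate early transcription factor, stood at 1.87 (1.51 to 2.32) in turnover and 0.901 (0.781 to 1.04) in autonomy. Cd5, a surface protein set by TCR signal strength, stood at 0.763 (0.679 to 0.857) and 1.05 (0.948 to 1.17). Whether the libraries differ in these ratios was not tested.

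**Figure D3:**
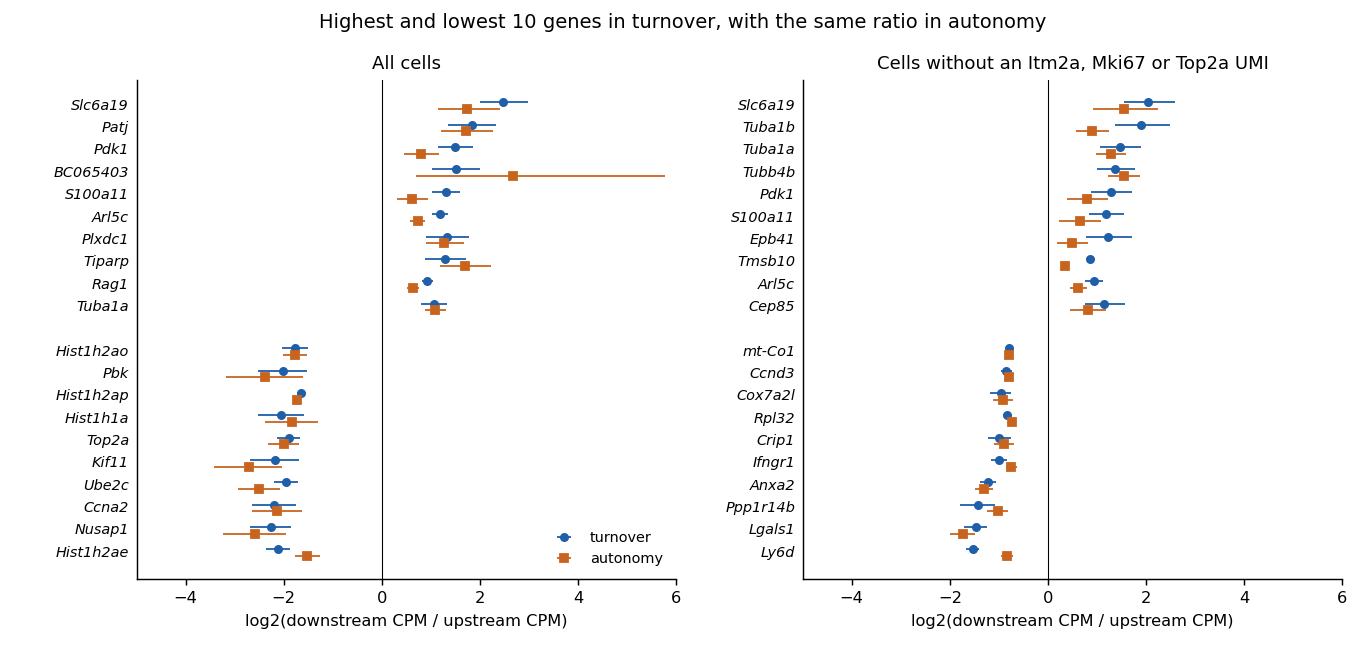
Log2 ratio of downstream to upstream CPM (horizontal axis) for the 10 highest and 10 lowest genes of turnover, over all cells (left) and in cells without a UMI of Itm2a, Mki67 or Top2a (right). Circles are turnover, squares are autonomy and bars are 95% counting intervals. In both libraries every gene shown lies on the same side of 0.

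The genes farthest below 1 over all cells belonged to cell division. The lowest 10 were the replication-dependent histone genes Hist1h2ae, Hist1h1a, Hist1h2ap and Hist1h2ao, and Nusap1, Ccna2, Ube2c, Kif11, Top2a and Pbk, which act in mitosis and chromosome separation. Top2a, the topoisomerase that untangles chromosomes, had 639 and 187 UMIs, 419 against 112 CPM, a ratio of 0.268 (0.227 to 0.316), and 0.250 (0.201 to 0.311) in autonomy. Of 22 genes on the G2/M list, 15 had 200 UMIs, 14 were lower and none higher, beside 3.36% lower of all genes, with a median log2 ratio of -1.69. Of 22 S phase genes, 13 had 200 UMIs, and 4 were lower (Tyms, Rrm1, Rrm2, Tipin) and none higher.

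Division transcripts stood highest at the most upstream end. Top2a, with a UMI in 46 upstream and 25 downstream cells, stood at 676 CPM in cells with TRAJ 50 or higher, then at 162, 88.2, 70.5 and 157 CPM. With every cell weighted equally, its level was 303, 54.8, 21.1, 24.6 and 25.1 CPM. Cells with a Mki67 UMI, a marker of cycling cells, made up 9.71% of upstream, 2.53% of in-between and 1.45% of downstream cells, and 5.87% (3.87 to 8.48), 0.542% and 0.923% when thinned, against 42.1% of the dividing class, which was defined by Mki67. The downstream UMIs of the lowest 10 genes came in part from 1 deep cell each, with 17.1% of those of Hist1h2ae and 29.6% of those of Ccna2. Without cells over 10000 UMIs (17 upstream and 9 downstream), the ratio was 0.128 for Top2a, 0.0413 for Ccna2 and 0.166 for Hist1h2ap. Hist1h1a stood at 0.379 there and at 0.242 with them. At matched depth the ratio of Hist1h2ae was 1.07 and that of Top2a 5.01, from the few such cells left, while Ube2c at 0.835 and Hist1h2ao at 0.683 were short of the fold. With at least 2000 UMIs per cell, the ratio was 0.476 for Top2a, 0.409 for Ccna2, 0.413 for Kif11 and 0.382 for Nusap1.

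**Figure D4:**
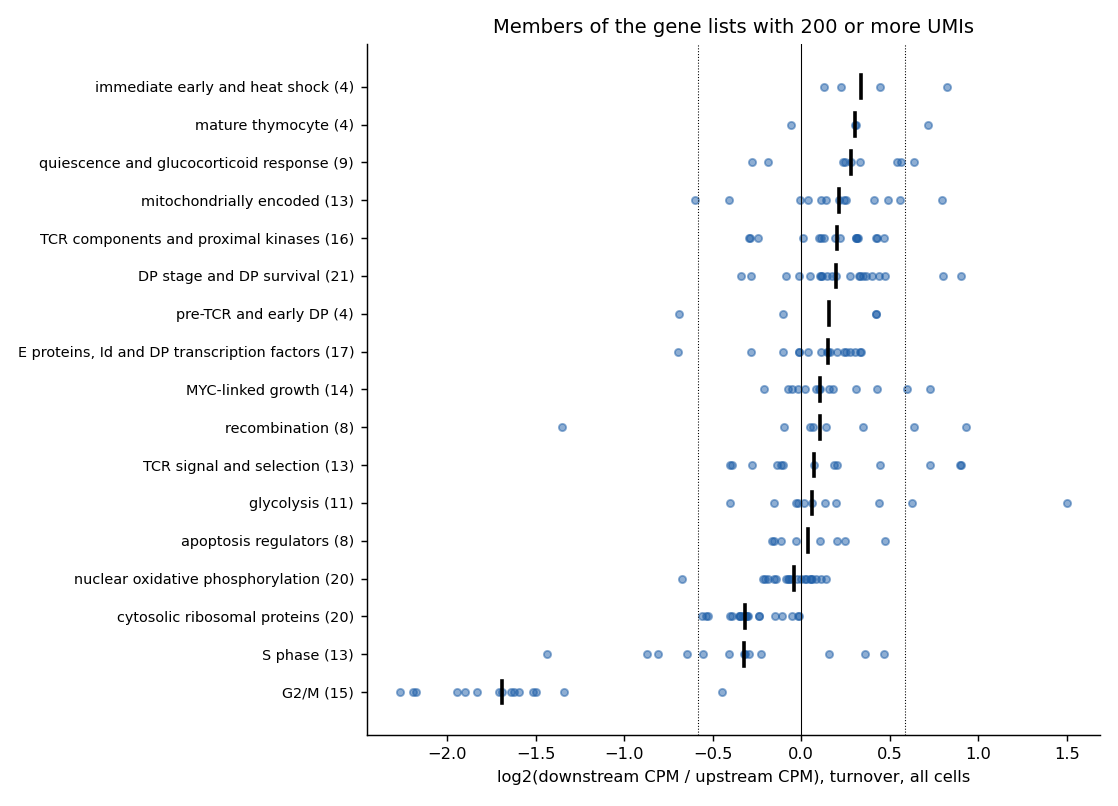
Log2 ratio of downstream to upstream CPM (horizontal axis) of each gene of the lists with at least 4 genes of 200 UMIs, turnover, all cells. Points are genes, black bars are medians, the count of genes is in brackets, and dotted lines mark a 1.5-fold difference. The G2/M list has a median of -1.69 and the ribosomal protein list of -0.32.

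To see which genes were low apart from division, the same ranking was applied to cells without a UMI of Itm2a, Mki67 or Top2a (307 upstream and 619 downstream cells), a subset added after the first values were seen. Its upstream cells had a median of 2378 UMIs and its downstream cells 1704, so a zero was more likely in downstream cells. Here 101 of 1731 genes were higher (5.83%) and 55 lower (3.18%). The lowest 10 were Ly6d, Lgals1, Ppp1r14b, Anxa2, Ifngr1, Crip1, Rpl32, Cox7a2l, Ccnd3 and mt-Co1. All 10 lay between the groups in cells with TRAJ 26 to 39, all 10 were lower still in the last bin than in the one before it, and all 10 were at least 1.5-fold lower in downstream cells of autonomy, at ratios of 0.299 to 0.598. The share of all autonomy genes past the fold is not given for this subset. In Itm2a 0 cells of autonomy it was 7.13% higher and 2.59% lower.

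Ly6d, a lipid-anchored surface protein of the Ly6 family (chromosome 15, 74762056 to 74763567), had 1293 and 659 UMIs, 1704 against 589 CPM, a ratio of 0.346 (0.314 to 0.380), and 0.560 (0.517 to 0.608) in autonomy. Its turnover bins stood at 1764, 1655, 1087, 692 and 512 CPM. Lgals1, a secreted galectin that binds glycans on thymocytes, stood at 623 and 224 CPM, a ratio of 0.360 (0.307 to 0.420), and at 0.299 in autonomy. Anxa2, which binds membrane phospholipids with calcium, stood at 1145 and 491 CPM, a ratio of 0.428 (0.384 to 0.477), with bins of 1218, 1098, 764, 614 and 399 CPM. Each bin of these 3 genes lay below the one before it in both libraries, except that Ly6d in autonomy was higher in the second bin (1403 CPM) than in the first (1147 CPM).

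Ifngr1, the ligand-binding chain of the interferon gamma receptor (chromosome 10, 19591949 to 19610229), stood at 927 and 466 CPM, a ratio of 0.503 (0.449 to 0.565). Ccnd3, the cyclin that thymocytes need to divide after the pre-TCR signal (chromosome 17, 47505051 to 47599689), stood at 1904 and 1060 CPM, a ratio of 0.556 (0.515 to 0.601), and at 0.576 in autonomy. Its turnover level was 1942, 1838, 1429, 1364 and 814 CPM by bin. Crip1, a small LIM domain protein, and Ppp1r14b, an inhibitor of protein phosphatase 1, had ratios of 0.503 and 0.373. Over all cells and at matched depth, the ratio was 0.326 for Ly6d, 0.431 for Lgals1, 0.422 for Anxa2, 0.550 for Ifngr1, 0.555 for Ccnd3 and 0.548 for mt-Co1.

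**Figure D5:**
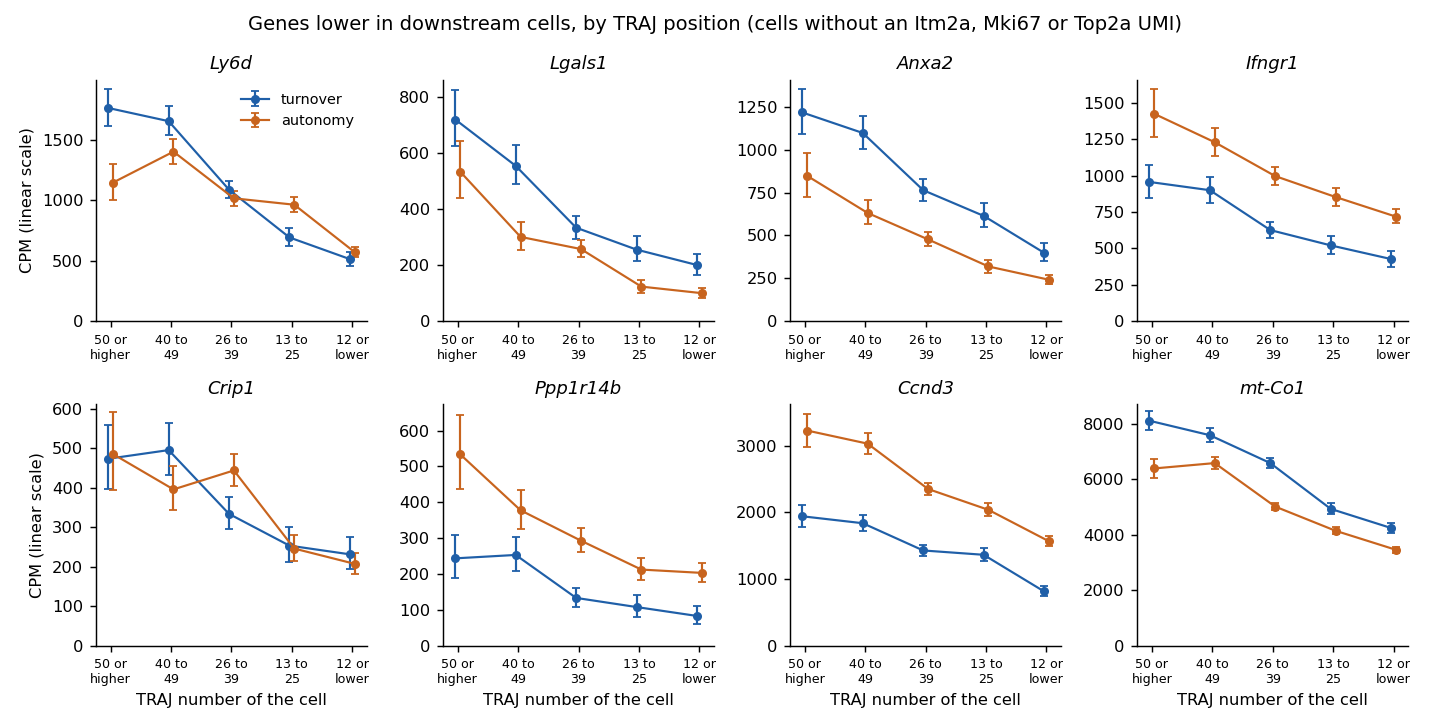
CPM (vertical axes, linear and starting at 0) of 8 genes by the TRAJ number of the cell (horizontal axes, upstream on the left) in cells without a UMI of Itm2a, Mki67 or Top2a, turnover and autonomy. Points are sums over the cells of a bin and bars are exact 95% Poisson intervals. Ly6d stood at 1764 CPM in the first and 512 CPM in the last turnover bin.

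The highest 10 genes of this subset were Slc6a19 (4.14, 2.93 to 5.997), the tubulin genes Tuba1b, Tuba1a and Tubb4b, Pdk1, S100a11, Epb41 of the membrane skeleton, Tmsb10, Arl5c and the centrosome gene Cep85. All 10 were higher in autonomy too and 8 passed the fold there, while Tmsb10 at 1.27 and Epb41 at 1.41 did not. Of 2934 genes in this subset of autonomy, 66.8% stood higher in downstream cells. The share of them past the fold is not given, so the count of 8 has no background of its own. In Itm2a 0 cells of autonomy 7.13% of genes were higher past the fold and 2.59% lower. In turnover 6 of the 10 were higher in the second bin than in the first. Tuba1a, an alpha tubulin, stood at 83.0 and 231 CPM, a ratio of 2.78 (2.10 to 3.72), and at 2.43 (1.97 to 3.03) in autonomy. Its bins were 83.5, 81.4, 116, 183 and 276 CPM. Tuba1b stood at 43.5 and 163 CPM, a ratio of 3.74 (2.57 to 5.595). By summed UMIs over all cells the Tuba1b ratio was 0.468 and that of Tubb4b, a beta tubulin, 0.732. By this measure both turned direction between the cell sets, while Tuba1a was 2.08 over all cells.

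Cytosolic ribosomal protein genes lay lower in downstream cells. All 20 on the list were below 1 over all cells, with a median log2 ratio of -0.32, none past the fold, and all 20 were below 1 in autonomy, with a median of -0.28. In Itm2a 0 cells 3 passed it, Rpl4 and Rpl32 among them. In cells without Itm2a, Mki67 or Top2a 5 passed it in either library, Rpl4, Rpl7, Rpl32 and Rplp0 among them, with medians of -0.45 and -0.50. Of all genes in these turnover cells, 3.18% were lower past the fold. Rpl4 stood at 1008 and 599 CPM there, a ratio of 0.594 (0.534 to 0.660).

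Few genes of oxidative phosphorylation passed the fold, a share near that of all genes (5.43% higher and 3.36% lower). Of 20 nuclear genes, Uqcrh, a subunit of complex III, was the only one past the fold over all cells, at 0.627 (0.582 to 0.675), and the list's median was -0.04. Of the 13 genes encoded in mitochondria, mt-Co1, the catalytic subunit of cytochrome oxidase, stood lower at 6463 and 4271 CPM, a ratio of 0.661 (0.641 to 0.681), and mt-Nd6, a subunit of complex I, higher at 1.74 (1.30 to 2.33), with 75 and 142 UMIs. The median of these 13 was 0.21. Of 17 glycolysis genes, 11 had 200 UMIs, and Pdk1 and Pkm, a pyruvate kinase, were higher and none lower. Pkm stood at 397 and 611 CPM, a ratio of 1.54 (1.39 to 1.70), and at 1.37 in autonomy.

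Of 22 genes that mark the DP stage, 21 had 200 UMIs, and none of these was lower. Of the 21, Ets2, a transcription factor, and Cxcr4, a chemokine receptor of cortical thymocytes, were higher at 1.87 (1.63 to 2.15) and 1.74 (1.32 to 2.31), beside 5.43% higher of all genes. In autonomy these 2 stood at 1.199 and 1.05. Themis, an adaptor needed for positive selection, had a ratio of 1.39 (1.28 to 1.51) in turnover and 1.39 (1.27 to 1.53) in autonomy, under the fold in both. Bcl2l1, which encodes the DP survival factor Bcl-xL, had 1.08 (0.871 to 1.33). None of the 8 apoptosis regulators with 200 UMIs passed the fold in either direction. Among these, Bax, which promotes cell death, stood at 1.39 (1.13 to 1.71), and at 1.46 in autonomy.

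None of the 16 tested genes of the TCR components and proximal kinases passed the fold, beside 5.43% higher and 3.36% lower of all genes. Cd3g, a chain of the CD3 complex, stood at 1.38 (1.31 to 1.46). Trac, the alpha constant region, stood at 286 and 241 CPM, a ratio of 0.845 (0.736 to 0.970), and at 1.11 (0.957 to 1.29) in autonomy. The transcription factors of the DP stage held 1 gene past the fold of 17, beside 3.36% lower of all genes. It was Ikzf2, which encodes Helios, at 0.618 (0.520 to 0.734). Tcf7, which encodes TCF1, stood at 0.822 (0.777 to 0.870). Of 17 genes on the pre-TCR and early DP list only 4 had 200 UMIs, and Ccnd3 was the 1 past the fold. Ptcra, the pre-TCR alpha chain, had 78 and 98 UMIs. Of the other lists, Txnip (1.55) was higher, 1 of 9 tested quiescence and glucocorticoid response genes. Dnajb1 (1.77) was 1 of 4 immediate early and heat shock genes, and Foxp1 (1.65) 1 of 4 mature thymocyte genes. Nop56 (1.65) and Nolc1 (1.51) were 2 of 14 genes of MYC-linked growth. No other tested member of these lists passed the fold, beside 5.43% higher and 3.36% lower of all genes. No member of the interferon response or cholesterol synthesis lists, each with 1 gene of 200 UMIs, passed it.

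Over all genes called in turnover, autonomy mostly gave the same direction. Of the 152 genes higher in downstream cells, 151 had 200 UMIs in autonomy, 142 of these were higher there (94.04%) and 37 at least 1.5-fold (24.5%). Of the 94 lower genes, 69 could be compared, 68 were lower (98.6%) and 33 at least 1.5-fold (47.8%). In Itm2a 0 cells, 117 of 121 higher and 53 of 56 lower genes had the same direction, 47 and 37 of them at least 1.5-fold. Of all genes compared in autonomy, 65.7% stood higher in downstream cells over all cells and 69.4% in Itm2a 0 cells. Downstream cells were the shallower ones in both libraries.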

How the data were processed

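Expression tables were used as deposited by the authors, as counts of unique molecules (UMIs) per gene and cell. Per the submitters' processing notes they were made with Cell Ranger 3.0.2 on mm10, and Seurat 3.1.3.9002 was named as well. How cells were called and which gene annotation was used is not given in the sources used here. The deposited V(D)J tables gave contigs with counts of UMIs and reads, segments and productive calls. Contigs were matched to cells by barcode. The members, gene lists and further genes were chosen with earlier results of these data known.

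UMIs were summed over the cells of a group and divided by the group total (CPM), with an exact Poisson interval for a level, a conditional exact binomial interval for a ratio and an exact (Clopper-Pearson) interval for a share, all at 95% and for counting error only. No test was made, since both groups came from 1 library and cells are not replicates. TCR and immunoglobulin V, D and J segment genes were left out, 641 in all. Named genes are the 10 farthest above and the 10 farthest below a ratio of 1, over all cells and in Itm2a 0 cells, among those with 200 UMIs, a UMI in 30 cells and the same direction with cells weighted equally, by the bound nearest to 1, with a set of further genes and up to 3 members per list (26 lists, 397 genes). The ranking in cells without Itm2a, Mki67 and Top2a was added after values were seen. Doublets were not removed, and cells with exactly 1 TRA and 1 TRB were an alternative. Of 31053 symbols, 25166 matched RefSeq's GRCm38.p6 table, the same build as mm10. The ratio and interval functions were tested on simulated data. Calculations used scipy 1.17.1, pandas 2.3.3 and numpy 2.4.6 in Python 3.11.15, and figures matplotlib 3.10.9.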

Additional observations from a re-analysis of the deposited data

Results flagged for a closer look

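Trbc1, a constant region of the TCR beta chain, stood lower in downstream cells of turnover and higher in those of autonomy, with ratios of 0.817 and 1.31 over all cells and 0.720 and 1.45 in Itm2a 0 cells. Tubb4b, a beta tubulin, did the same by summed UMIs, at 0.732 and 1.40 over all cells and 0.740 and 1.41 in Itm2a 0 cells. With every Itm2a 0 cell weighted equally, however, Tubb4b was higher in downstream cells of both libraries, at 1.26 and 2.13. In cells without Itm2a, Mki67 and Top2a, Tubb4b was higher in both libraries, at 2.59 and 2.91, and Trbc1 kept its opposite directions, at 0.625 and 1.28. The difference between the libraries was not tested.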

How the results depend on the processing

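No paired analysis was possible because both groups came from the same 1 library and carry no replicate numbers, and for the same reason no library could be left out. The count of genes apart was 246 over all cells and 189 in Itm2a 0 cells. It was 104 and 72 with at least 2000 UMIs per cell, and 75 and 63 in cells of 1500 to 2500 UMIs. In the latter fewer genes were tested, and the share apart was 6.35% and 6.4%, beside 8.79% and 9.1% in the main setting. With the gene minimum scaled to the UMIs, these cells gave 314 and 205 genes (10.8% and 9.5%). The count was 1067 and 1014 with a gene minimum of 50 UMIs and 34 and 34 with a minimum of 1000. It was 59 and 46 with a fold of 2, and 156 over all cells without a Mki67 or Top2a UMI. The other settings stayed within 1.5 times. The matched-depth settings and the ranking without dividing cells were chosen after seeing the data. The 10 highest genes stayed above 1 in all 120 values over all cells and all 129 in Itm2a 0 cells. The values with every cell weighted equally could not cross 1, since the ranking required the same direction there. The other settings largely reused the cells that chose the genes. Genes of division crossed 1. Without a Mki67 or Top2a UMI, the ratio was 2.27 for Hist1h1a, 1.30 for Hist1h2ap and 1.13 for Hist1h2ao over all cells, and 1.36 for Pclaf, 1.02 for Nusap1, 1.22 for Hist1h2ap and 1.63 for Rrm2 in Itm2a 0 cells. At matched depth it was 1.07 for Hist1h2ae, 5.01 for Top2a, 2.09 for Hist1h1a and 1.09 for Hist1h2ap over all cells, and 1.84 for Pclaf, 1.23 for Hist1h2ae, 1.11 for Hist1h2ap and 1.38 for Rrm2 in Itm2a 0 cells. Il2ra, with 38 UMIs in Itm2a 0 cells and a ratio of 0.527, was at 1.51 with TRAJ limits of 45 and 20, 1.23 with exactly 1 TRA and 1 TRB, 1.69 with TRA contigs of at least 3 UMIs and 2.99 at matched depth. Of its 23 upstream UMIs, 56.5% came from 1 cell, and with every cell weighted equally its ratio was 0.961. The cause was not tested.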
